A study of Mus musculus with 4 samples.

Results

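The genes described are the heat shock and J-domain (DnaJ) chaperone genes of the mouse, in 4 libraries of cells labelled as T-helper 2 (Th2) cells. A gene was taken when its symbol, matched by Ensembl identifier, began with Hspa, Hspb, Hspd, Hspe, Hsph, Hsp90 or Dnaj, or with Hsf and a digit, and held no dash or ps. That gave 80 genes. Gm20481, annotated on the strand opposite to Hspa1a, was added by name, which made 81 of the 50600 genes counted. The rule on names also admits Hspbp1, Hspbap1 and Hsf2bp, whose proteins interact with heat shock proteins or factors and are not themselves chaperones or heat shock factors.

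All 4 samples form 1 group, biological replicates 1 to 4 of primary cells from C57BL/6NJ mice, and no other treatment, genotype or cell type was compared. The labels give 1 donor identifier for all of them, leave sex, age and stage unknown, and do not say whether the cells came from separate animals, so that p-values measure only the spread between these samples, which may be technical. The labels link a protocol for differentiating CD4 T cells, while the file headers describe time 0 of a course towards Th1 and Th2 cells. The assay is labelled total RNA-seq, but the linked library protocol is named for poly(A) RNA.

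Libraries held between 1452053 and 2351916 counts, and 3 counts, the limit that a count of 0 allows, was between 1.28 and 2.07 CPM, a count relative to its library total. Of the T cell markers 6 of 6 reached a mean of 1 TPM, where TPM is the count per exon length scaled to the same total in every library. Of the Th2 markers 3 of 5 did, with Il5 and Il13 at 0 counts. Among markers of other cells 1 of 3 for macrophages (Csf1r), 1 of 3 for cytotoxic T cells (Cd8b1) and 0 of 2 for fibroblasts reached that mean, and so did Cd79a of B cells. Ms4a1, Lyz2, Adgre1 and Gzmb were at 0. The ribosomal RNA locus CT010467.1 took 3.47% to 16.8% of the counts of a library, least in replicate 3. TPM was not corrected for such differences in composition. The scaling factors used in the edgeR test of spread (TMM) ran from 0.952 to 1.079, highest in replicate 3. Statements below that a replicate was highest or lowest in TPM are without that scaling.

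The counting was strand-specific. In these libraries many counts lie on genes annotated opposite to an expressed gene, so a count below is the number of fragments on the gene's annotated strand and is not read as the level of its transcript. Why fragments lay on one strand or the other was not tested. In bulk RNA, fewer cells that express a gene and less of its RNA per cell cannot be told apart.

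Chaperones keep other proteins folded. HSP70 proteins (Hspa genes) bind exposed hydrophobic stretches of unfolded proteins in a cycle driven by ATP. J-domain proteins (Dnaj genes) deliver clients to HSP70 and stimulate its ATPase, and HSP110 proteins such as Hsph1 help it to release ADP. HSP90 proteins act later, on clients that include kinases of T cell receptor signalling such as Lck. The chaperonin of mitochondria is built of Hspd1 (HSP60) closed by a lid of Hspe1 (HSP10), and small heat shock proteins (Hspb genes) hold unfolding proteins without ATP. Heat shock factor 1 (Hsf1) binds inverted repeats of the letters GAA in promoters and switches on the inducible members of these families, first among them Hspa1a and Hspa1b.

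Hspa1a and Hspa1b are shown first, because the member with the most counts per length, Gm20481, lies opposite to one of them and shares sequence with the other. Both are genes of a single exon on the minus strand of chromosome 17 (mm10), Hspa1a (ENSMUSG00000091971.3) at chr17:34969190-34972156 and Hspa1b (ENSMUSG00000090877) at chr17:34956436-34959238. The 250 bases before their starts, from RefSeq promoter sequences on GRCm38.p6, are printed 5′ to 3′ on the minus strand, Hspa1a from chr17:34972157-34972406 and Hspa1b from chr17:34959239-34959488. Capitals mark the match to GAANNTTC, the core of a heat shock element.
Hspa1a: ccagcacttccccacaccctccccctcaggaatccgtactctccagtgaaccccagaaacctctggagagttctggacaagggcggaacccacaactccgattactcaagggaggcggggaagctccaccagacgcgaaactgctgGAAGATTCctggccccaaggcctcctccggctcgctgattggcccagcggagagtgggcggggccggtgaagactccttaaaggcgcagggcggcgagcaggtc
Hspa1b: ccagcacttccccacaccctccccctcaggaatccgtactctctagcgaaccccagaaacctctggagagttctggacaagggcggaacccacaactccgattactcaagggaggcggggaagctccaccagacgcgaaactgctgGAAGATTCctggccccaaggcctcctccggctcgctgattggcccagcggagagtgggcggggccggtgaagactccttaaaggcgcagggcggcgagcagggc
They were identical at 247 of the 250 positions (98.8%), and the marked element lay 104 bases before the start in both. The transcripts themselves shared exact runs of up to 638 bases, and 58.8% of the 50-base words of Hspa1a were also in Hspa1b. Fragments within such runs align equally well to both genes. No option to count such multi-mapping fragments was given, so how many are missing from either count is uncertain.

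The same motif was searched in the promoter windows (the 250 bases before each RefSeq start) of the 64 members that the RefSeq table holds. The other members, Hspa8, Hsp90aa1, Hsp90ab1 and Hsf1 among them, were not searched, so whether they have a match is not known here. GAANNTTC and its reversed spacing TTCNNGAA read the same on both strands and can overlap. One or the other was found in 15 of the 64 members. By windows this was 17 of 81 member windows (21%), against 12.8% of 32851 windows of all genes. GAANNTTC alone was in 14.8% of member windows and 6.69% of all, and TTCNNGAA in 11.1% and 7.17%. A match is a description of letters and not a bound site. The members with a match ranged from Dnaja1, Hspd1 and Hspe1, which had counts in every library, to Hspb3 and Hsf5, which had none.

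The longest match was an 18-base run of alternating motifs in the stretch shared by the divergent promoters of Hspd1 and Hspe1, chr1:55088053-55088082. It is printed on the strand of each gene, with those of Hspb1, Dnaja1, Dnajb6 and Hsph1 to show how the element varies between families (capitals, the motif).
Hspd1: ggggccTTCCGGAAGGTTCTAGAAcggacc
Hspe1: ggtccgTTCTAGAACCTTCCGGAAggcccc
Hspb1: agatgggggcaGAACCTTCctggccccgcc
Dnaja1: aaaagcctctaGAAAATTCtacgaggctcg
Dnajb6: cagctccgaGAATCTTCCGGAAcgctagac
Hsph1: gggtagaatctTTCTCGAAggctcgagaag
On the strand of each gene the run began 89 bases before the RefSeq start of Hspe1 and 144 before that of Hspd1. Hspb1 is at chr5:135887811-135887840, Dnaja1 at chr4:40722333-40722362, Dnajb6 at chr5:29735843-29735872 and Hsph1 (minus strand) at chr5:149636351-149636380. As counted, Hspd1, Dnaja1, Dnajb6 and Hsph1 start upstream of their RefSeq starts, so their marked motifs lie within the counted span of the gene.

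Of the 80 genes chosen by name, 48 (60%) had a mean of 1 TPM or more, against 34.0% of the 21764 protein-coding genes and 21.6% of all genes. No count was found for 11 of the 80 (13.8%), against 44.6% of protein-coding genes. A further 5 had 1 to 3 counts in all, and 21 had a count but a mean below 1 TPM. The 80 genes together took 0.322% ± 0.030 of a library's counts (SD, n = 4), with 0.310%, 0.301%, 0.367% and 0.311% in replicates 1 to 4. Gm20481 alone took 0.112% ± 0.053. Their median was 2.21 TPM, against 0.144 TPM over protein-coding genes, and among genes of 1 TPM or more it was 6.97 against 3.94. Few genes carried most of the count of the 80: the 5 genes Dnajc1, Dnajc19, Hsp90ab1, Dnajc14 and Dnajc7 held 64.1% of it, summed over libraries.

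**Figure D1:**
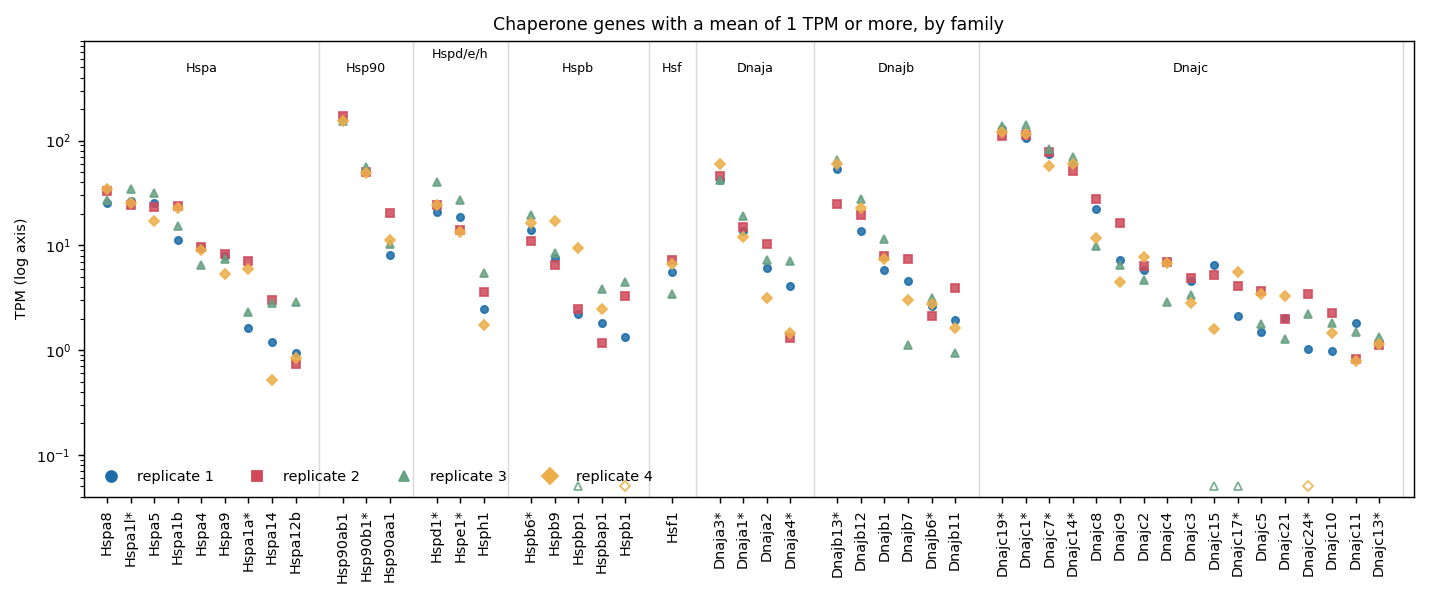
TPM (log axis) of the 48 chaperone genes chosen by name with a mean of 1 TPM or more, grouped by family and ordered by mean; each symbol is 1 library, open symbols at the bottom are libraries with 0, and a star marks an exon overlap with a gene on the opposite strand. Hsp90ab1, Dnajc19 and Dnajc1 stand at the top with means of 158.9, 125.0 and 119.1 TPM, and Hsf1 is the single heat shock factor gene shown.

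The cytosolic inducible genes Hspa1a and Hspa1b had few counts. Hspa1a had 7, 31, 9 and 17 counts in replicates 1 to 4, or 1.64, 7.04, 2.32 and 5.98 TPM (mean 4.25 ± 2.66, SD, n = 4). Hspa1b had 45, 98, 56 and 61 counts, or 11.2, 23.5, 15.3 and 22.7 TPM (mean 18.2 ± 5.96). Both were higher in replicates 2 and 4 than in replicates 1 and 3. Hspa1b exceeded Hspa1a by 2.25 ± 0.50 on the log2(TPM + 0.1) scale, and by 4.30-fold in summed counts per exon length (95% Clopper-Pearson interval 3.26 to 5.75, counting error only).

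Hspa1l, the testis-enriched HSP70 gene beside them on the plus strand (chr17:34972703-34979285), had 94, 89, 112 and 60 counts and 27.7 ± 4.77 TPM. Its libraries lay between 24.2 and 34.7 TPM, with replicate 3 highest. The antisense gene Gm10501 covers 1778 bases of its exons and had 4 counts in all.

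Gm20481 (ENSMUSG00000092609.1, chr17:34969912-34972136, plus strand) is annotated as protein-coding and has 2 exons, both inside the single exon of Hspa1a. Exon 1 (chr17:34969912-34970288, 377 bases) lies opposite 286 coding bases and 91 bases of the 3′ UTR of Hspa1a, and exon 2 (chr17:34971950-34972136, 187 bases) opposite its 5′ UTR. It had 1348, 2458, 1809 and 2728 counts, or 1664, 2935, 2458 and 5046 TPM, with a mean of 3025 ± 1445 (SD, n = 4). Replicate 4 was highest and replicate 1 lowest. No library of Hspa1a, Hspa1b or Hspa1l came near the lowest of Gm20481.

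**Figure D2:**
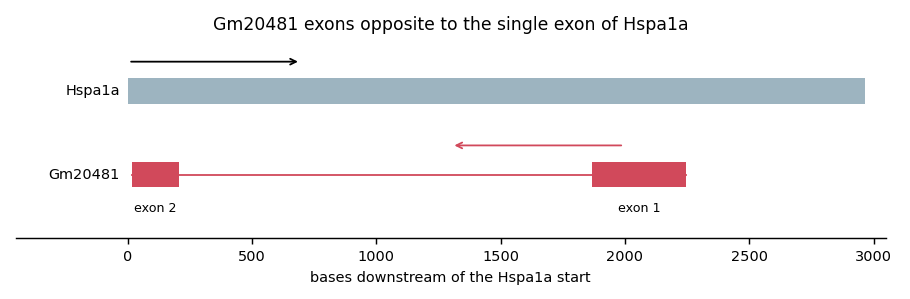
Positions of Hspa1a and of the 2 exons of Gm20481 in bases downstream of the Hspa1a start, to scale; arrows give the direction of transcription. Exon 2 of Gm20481 lies near the start of Hspa1a and exon 1 farther down, and all 564 exon bases of Gm20481 lie opposite to Hspa1a.

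Per exon base, Gm20481 exceeded Hspa1a by 9.57 ± 0.60 on the log2 scale (9.90, 8.68, 9.99 and 9.70 in replicates 1 to 4). In summed counts this was 8343 against 64, or 685.8-fold per exon base (interval 536.5 to 891.3). Without division by exon length the log2 difference was 7.19. Between libraries the fold per exon base was 955.0, 411.3, 1014 and 830.3, smallest in replicate 2, where Hspa1a had its most counts.

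The Gm20481 transcript is close in sequence to Hspa1b as well. Of its 515 words of 50 bases, 91.7% were found on the opposite strand of Hspa1a, and the remainder span its splice junction. On the opposite strand of Hspa1b 57.9% were found, with exact runs of up to 245 bases, and none in Hspa1l or Hspa8. A stretch within exon 1, opposite coding bases of Hspa1a, shows where such a run begins. Gm20481 is read from the plus strand at chr17:34970037-34970096 and the opposite strand of Hspa1b, also plus, at chr17:34957119-34957178. Capitals mark the 6 positions that differ when the stretches are placed without gaps. An insertion at one locus would be marked as several differing positions, so 6 is not a count of substitutions.
Gm20481: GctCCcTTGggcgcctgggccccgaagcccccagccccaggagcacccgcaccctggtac
Hspa1b opposite strand: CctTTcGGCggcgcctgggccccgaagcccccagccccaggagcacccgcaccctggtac
After the last difference the stretch is identical. Fragments within runs of this kind cannot be assigned to one locus by sequence, and how many were counted at Gm20481 was not tested.

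**Figure D3:**
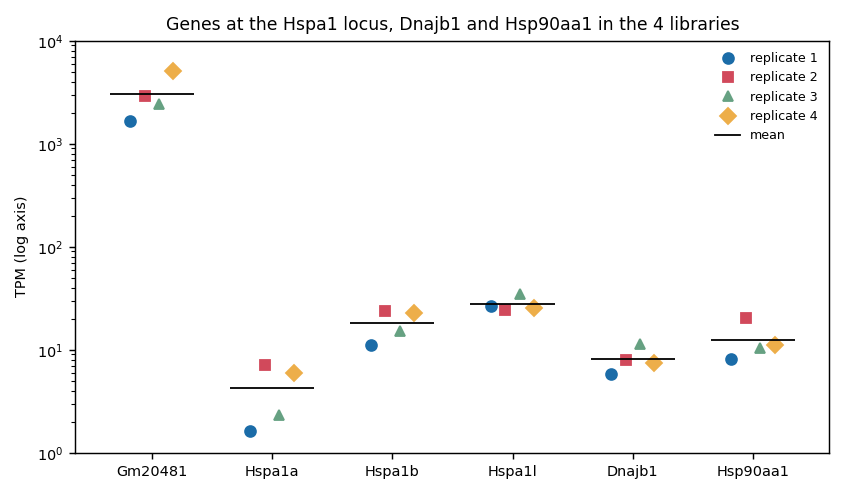
TPM (log axis) of Gm20481, the 3 Hspa1 genes, Dnajb1 and Hsp90aa1 in each library; symbols are replicates 1 to 4 and the line is the mean. Gm20481 runs from 1664 to 5046 TPM, while Hspa1a runs from 1.64 to 7.04 and Hspa1b from 11.2 to 23.5.

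Among the constitutive HSP70 genes, Hspa8 (HSC70, the main cytosolic HSP70 of unstressed cells) had 156, 212, 154 and 142 counts and 30.1 ± 4.44 TPM. This was the highest mean of the 13 Hspa genes. Hspa8 exceeded Hspa1a by 3.02 ± 0.78 on the log2 scale and 7.16-fold in summed counts (interval 5.53 to 9.40). Of its 50-base words 49.0% occur in genes elsewhere, many of them processed copies.

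One such copy was singled out after its values were seen. The pseudogene Gm15459 on chromosome 5 (5781615 to 5783555) is a processed copy of Hspa8, and the long intergenic RNA gene Gm26825 (5781530 to 5783636) overlaps 1860 of its exon bases on the other strand. Gm26825 shares 1384 words, 44.5% of those of Hspa8, with the opposite strand of Hspa8. It had 254, 193, 274 and 158 counts and 84.1 ± 16.3 TPM, while Gm15459 had 0 counts in all 4 libraries. Whether fragments of the shared words came from one locus or the other was not tested.

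Hspa5 (BiP, the HSP70 of the endoplasmic reticulum, ER) had 156, 147, 173 and 70 counts and 25.7, 23.4, 31.4 and 17.3 TPM. Replicate 4 was lowest for it. The remaining Hspa genes were lower. Hspa4 and Hspa9 were named after their values were seen. Hspa4, an HSP110-type exchange factor, had 8.66 ± 1.45 TPM, and Hspa9, the mitochondrial HSP70 mortalin, 7.22 ± 1.32, both with counts in every library. Hspa2, an HSP70 of male germ cells, had 2 counts in all and Hspa13, a microsomal family member, 4. In all 9 of 13 Hspa genes reached 1 TPM, and Hspa12a had no count.

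The 3 HSP90 genes all reached 1 TPM. Hsp90ab1, the constitutive cytosolic form, had 677, 765, 599 and 442 counts and 157.1, 171.8, 153.0 and 153.7 TPM, the highest mean of the 80 genes. Its TPM varied by 5.50% (coefficient of variation) and no exon of an opposite-strand gene overlaps it. Hsp90aa1, the inducible cytosolic form, had 46, 120, 53 and 42 counts and 8.15, 20.6, 10.3 and 11.2 TPM. Replicate 2 stood above the other three. Hsp90ab1 exceeded Hsp90aa1 by 3.74 ± 0.50 on the log2 scale and 12.5-fold in summed counts (interval 10.97 to 14.2), from 8.32-fold in replicate 2 to 19.1-fold in replicate 1. Since 58.5% of the 50-base words of Hsp90aa1 recur in other genes, its count is uncertain.

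Hsp90b1 (GRP94, the HSP90 of the ER) had 289, 300, 293 and 191 counts and 51.3 ± 2.96 TPM. Its 3′ end overlaps, over 415 bases, exons of the pseudogene 1810014B01Rik on the other strand, which had 7431, 5914, 6529 and 4167 counts. BiP works with GRP94 in the ER, and Hspa5 differed from Hsp90b1 by -1.10 ± 0.30 on the log2 scale. In summed counts per exon base Hsp90b1 was 2.06-fold higher (interval 1.86 to 2.29).

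The chaperonin genes Hspd1 and Hspe1 are divergent neighbours on chromosome 1 that share the promoter stretch printed above. As counted, with Hspd1 starting upstream of its RefSeq start, their first exons overlap by 112 bases on opposite strands. Hspd1 had 79, 96, 139 and 61 counts (20.8, 24.5, 40.3 and 24.1 TPM). Hspe1 had 40, 31, 52 and 19 counts (18.9, 14.2, 27.0 and 13.5 TPM). Replicate 3 was highest for both. Hspd1 exceeded Hspe1 by 0.58 ± 0.32 on the log2 scale, 1.47-fold in summed counts (interval 1.21 to 1.80), with 1.10-fold in replicate 1 and 1.49- to 1.79-fold in the others. Without division by exon length the log2 difference was 1.42. Of the 50-base words of Hspd1 44.8% recur in other genes, against 8.20% for Hspe1, so the ratio is uncertain. Hsph1 (HSP110) had 26, 39, 52 and 12 counts and 3.33 ± 1.63 TPM, again highest in replicate 3 and lowest in replicate 4.

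Counted by prefix, Hspb genes had the largest share at 0 after the Hsf genes. These prefix groups include Hspbp1, Hspbap1 and Hsf2bp, and shares without those were not computed. Of the 10 genes with the prefix Hspb 5 reached 1 TPM, and Hspb2, Hspb3, Hspb7 and Hspb8, known chiefly from muscle and heart, had no count. Hspb6 (HSP20) was highest at 15.3 ± 3.62 TPM, with 46, 38, 59 and 36 counts. Hspb9, known from testis, had 8, 7, 8 and 12 counts and 9.96 ± 4.92 TPM. Hspbp1 and Hspbap1, which are not chaperones but are among the 5 at 1 TPM, had 3.52 ± 4.06 and 2.33 ± 1.14 TPM. Hspbp1 was at 0 in replicate 3 and at 17 counts in replicate 4. Hspb1 (HSP27), the widely expressed member, had 2, 5, 6 and 0 counts, and Hspb11 had 4 in all, which is near the limit of what these depths can show. Of the 50-base words of Hspb1 51.6% recur in other genes, so its count is also uncertain.

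Heat shock factors had low counts throughout. Hsf1 had 16, 22, 9 and 13 counts and 5.75 ± 1.73 TPM, and was the 1 gene of 6 with this prefix to reach 1 TPM. Hsf2, a factor known from development, had 5, 6, 3 and 3 counts and 0.337 ± 0.076 TPM. The log2 difference between them was 3.70 ± 0.27, or 16.8-fold in summed counts (interval 9.67 to 30.7). The log2 difference was 2.297 with a pseudocount of 1 TPM and 1.77 without division by exon length. Hsf4, the lens factor, had 3 counts, all in replicate 4, and Hsf2bp, Hsf3 and Hsf5 had none.

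Type A J-domain proteins, which resemble bacterial DnaJ along their whole length, all reached 1 TPM (4 of 4 genes). Dnaja3 (TID1, of mitochondria) had 235, 265, 216 and 226 counts and 41.8, 45.6, 42.3 and 60.3 TPM. Vasn overlaps it on the same strand, and fragments in the shared exon bases cannot be assigned to one of them. Dnaja1 (HDJ2, a main cytosolic partner of HSC70) had 171, 194, 213 and 100 counts and 14.98 ± 2.90 TPM. Dnaja2, a second cytosolic partner, had 26, 46, 28 and 9 counts, and Dnaja4 21, 7, 33 and 5. Dnaja2 ranged from 3.16 to 10.4 TPM and Dnaja4 from 1.31 to 7.05, and replicate 4 was the lowest or next to lowest for both.

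Of the 13 type B genes 6 reached 1 TPM. Dnajb13, known from the radial spokes of sperm and cilia, was highest with 211, 100, 232 and 156 counts and 53.8, 24.7, 65.1 and 59.6 TPM. Replicate 2 stood below the other three. Its 3′ end overlaps that of Ucp2 over 305 bases. Dnajb12, of the ER membrane, had 66, 98, 123 and 73 counts (20.95 ± 5.99 TPM) and no gene on the other strand within 5 kb. Dnajb1 (HSP40, the inducible cytosolic partner of HSP70) had 27, 38, 48 and 23 counts and 8.21 ± 2.36 TPM. Dnaja1 exceeded Dnajb1 by 0.88 ± 0.25 on the log2 scale, 1.85-fold in summed counts (interval 1.54 to 2.24), and by a log2 difference of 2.31 without division by exon length. Dnajb7 lies in an intron of an opposite-strand gene and had 9, 15, 2 and 4 counts. At the low end, Dnajb9, an ER partner of BiP, had 7 counts and Dnajb14 had 20, and Dnajb3 had none.

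Type C genes share only the J domain and act in many places. Of 28, 17 reached 1 TPM, and 2 (Dnajc22 and Dnajc5g) had no count. Dnajc19, of the mitochondrial import motor, had 756, 657, 731 and 465 counts and 130.7, 109.9, 139.1 and 120.5 TPM. Dnajc1, an ER membrane protein that binds ribosomes, had 1790, 1978, 2129 and 1286 counts and 106.9, 114.3, 140.0 and 115.1 TPM. Dnajc7, a cochaperone that also binds HSP90, had 518, 568, 524 and 270 counts and 73.3 ± 10.8 TPM. Dnajc14 had 567, 497, 600 and 379 counts and 60.4 ± 7.79 TPM, with Sarnp overlapping it on the same strand. In TPM, which was not scaled by TMM, replicate 3 was highest for all 4 of these genes, and the coefficient of variation was between 10.1% and 14.8%. Dnajc28 and Dnajc16 had the lowest mean TPM of those with any count, from 2 and 3 counts.

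All 8 ratios given above were tested over the 4 libraries. Each had the same sign in 4 of 4 libraries, and each had p = 0.13 in the exact two-sided sign-flip permutation test, from 2 of 16 sign patterns (0.13 after Benjamini-Hochberg adjustment over the 8), which is the smallest p that 4 libraries allow. None can therefore pass 0.05, and the sizes and their spread between libraries are given as descriptions.

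Exon overlap with a gene on the other strand was found for 25 of the 80 genes (31.2%), against 22.1% of protein-coding genes. A further 8 overlapped the span of such a gene without shared exon bases, 26 lay within 5 kb of one and 21 had none within 5 kb. The overlapped genes held 73.3% ± 2.95 of the counts of the 80 genes (SD, n = 4). They made up 12 of the 19 genes at 10 TPM or more and 8 of the 10 highest. None of these shares, the 73.3% included, was computed for protein-coding genes, so none is read as a trait of chaperone genes. Of the 25, 18 reached 1 TPM. Among protein-coding genes 57.9% of the overlapped ones did, against 34.0% of all. With Gm20481 included, the median count density of the 26 overlapped members exceeded that of the other 55 by 2.77 ± 0.37 on the log2(TPM + 0.1) scale, with 2.39, 2.81, 3.26 and 2.61 in replicates 1 to 4. Over all protein-coding genes the same difference was 4.21 ± 0.20. The place of Gm20481 among the overlapped members was fixed by the rule that chose it, and without it the difference was 2.17 ± 0.47. Among genes of 1 TPM or more it was 2.21 ± 0.50 for the members (19 against 30), 1.99 ± 0.52 without Gm20481, and 1.52 ± 0.13 for protein-coding genes. These differences are descriptions and were not tested.

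Whether the member or its partner was the denser varied. Of the 80 genes 20 had an opposite-strand exon overlap of at least 100 bases, and the partner with the largest overlap had the higher mean TPM for 10 (50%), against 65.5% of 3257 protein-coding genes. In 10 of the 20 pairs the genes met at their starts, in 8 at their ends, and in 2 the member contained its partner.

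Hspd1 and Hspe1 are each other's partner and enter once from each side. Among pairs with the partner higher, the densest partners were Gm20481 and, opposite to Hsp90b1, 1810014B01Rik (1744 ± 210 TPM). For Dnaja4, 1581 bases overlap Wdr61, a subunit of the PAF complex of transcribing polymerase, which had 290, 286, 551 and 229 counts. Replicate 3 was highest for both genes of that pair. Dnajc7 lies between Cnp (704.0 ± 56.3 TPM) and Nkiras2 (186.2 ± 13.4 TPM) and overlaps the end of one and the start of the other. Dnajc14 shares 1114 bases with Ormdl2, a regulator of sphingolipid synthesis, at 224.5 ± 22.8 TPM. Dnajc30, Dnajc17 and Dnajc13 were named after their values were seen. Dnajc30 had a mean of 0.729 TPM (5 counts) against 55.95 for Bud23 (1000 counts). Dnajc17 had 2.96 against 17.8 for Zfyve19, and Dnajc13 had 1.20 against 43.5 for Gm37563.

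In the other direction, Dnajc19 had a mean of 125.0 TPM and Fxr1, an RNA-binding protein gene, 9.92. Dnajc1 had 119.1 TPM and Mllt10 53.1, and Dnajb13 had 50.8 and Ucp2 5.09. Dnaja3 had 47.5 TPM and Coro7 2.06. Dnaja1 had 14.98 TPM against 3.70 for Smu1, and Hspb6 had 15.3 against 0.314 for Proser3. In each of these 6 pairs the member was the denser in all 4 libraries.

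**Figure D4:**
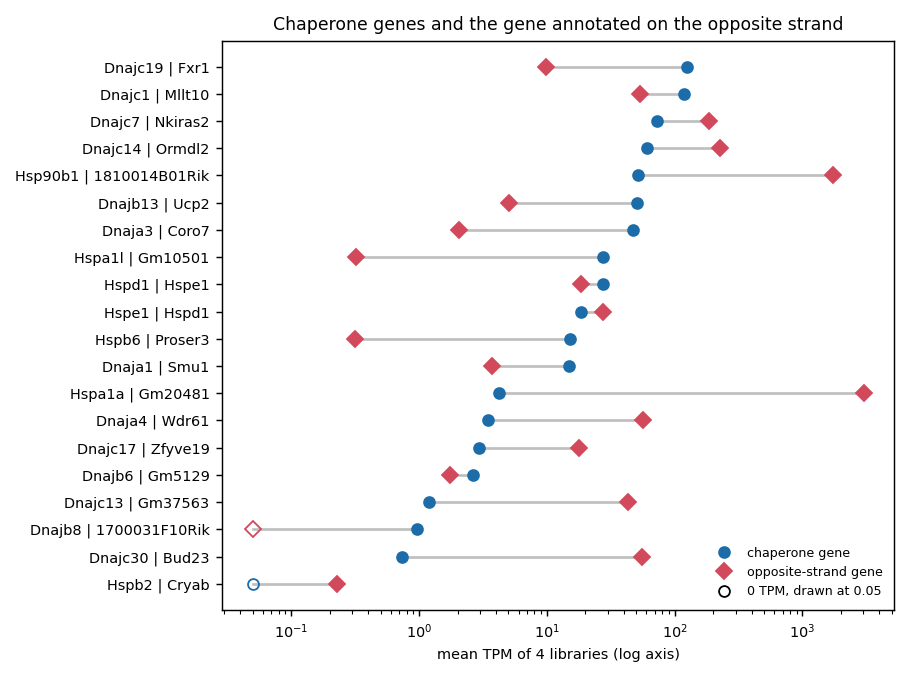
Mean TPM over the 4 libraries (log axis) of 20 chaperone genes (circles) and of the opposite-strand gene with the largest exon overlap of at least 100 bases (diamonds); open symbols are genes with 0 counts, drawn at 0.05. The partner lies to the right in 10 pairs, farthest for Hspa1a and Gm20481.

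Spread between libraries was tested with edgeR over 5755 genes with enough counts, of which 15 (0.261%) were more variable than the fitted trend at a Benjamini-Hochberg adjusted p of 0.05. Of the 31 members tested, 1 was called, Gm20481, with a quasi-dispersion 20.4 times that of the trend (edgeR, adjusted p = 6.48e-10, rank 3 of all genes tested). Gm20481 was named in the rule that chose the members, so this call is not independent evidence about them. It rests on replicate 4: without that library the ratio was 4.59 and the adjusted p from edgeR 0.987, and no member was called. The share of counts on Gm20481 was 0.188% in replicate 4 and 0.063%, 0.105% and 0.094% in replicates 1 to 3. The ribosomal RNA locus, at 6.90%, 16.8%, 3.47% and 12.6% of counts in replicates 1 to 4, was, like Gm20481, Hspa1a and Hspa1b, higher in replicates 2 and 4 than in 1 and 3, and its part in the result was not tested. With it and the mitochondrial genes left out of the fit, Gm20481 was called as before (edgeR, adjusted p = 1.62e-08).

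Unadjusted, 3 of the 31 members (9.68%) had p below 0.05, against 5.02% of all genes tested. The next were Dnajb13 (ratio 5.57, edgeR adjusted p = 0.166) and Dnajc8 (ratio 2.86, edgeR adjusted p = 0.988). Dnajc8, named for this spread, had 82, 106, 33 and 29 counts, higher in replicates 1 and 2. The median ratio was 0.824 for the members and 0.772 for all genes. Hsp90b1 was among the least variable, with a ratio of 0.036.

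**Figure D5:**
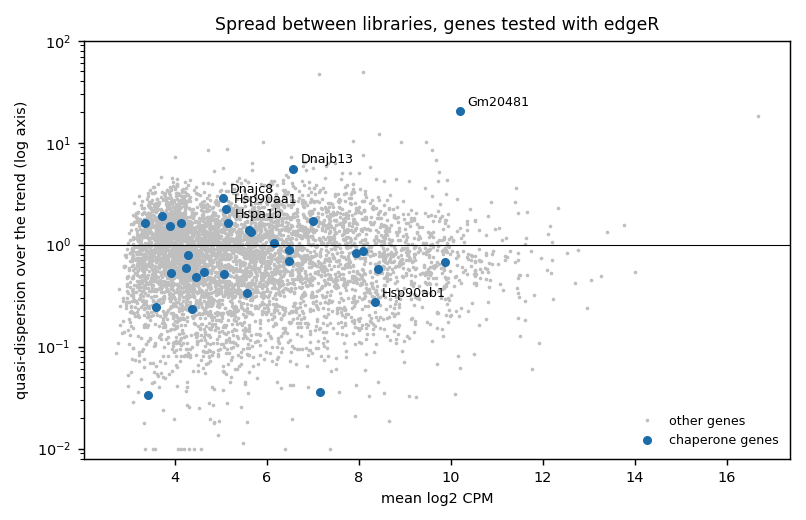
Quasi-dispersion over the fitted trend (log axis) against mean log2 CPM for the genes tested with edgeR; blue points are the 31 chaperone genes, grey points the others (values below 0.01 are drawn at 0.01), and the line marks a ratio of 1. Gm20481 lies at 20.4, above Dnajb13 at 5.57, and the other members lie among the remaining genes.

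Partner genes of these chaperones were read from the lists of related genes below. In the order given, 10, 5, 9 and 9 of their genes were tested in the same edgeR test. None was called, against 0.261% of all genes tested, a share at which so few genes show little. The counts of genes reaching 1 TPM stand beside 34.0% of protein-coding genes. Cochaperones of HSP90 reached 1 TPM in 17 of 17 genes (median 5.33 TPM). Ahsa2, an activator of the HSP90 ATPase, was highest at 551.3 ± 63.6 TPM and overlaps Usp34, which had 44.98 TPM. Stub1 (CHIP, a ubiquitin ligase of chaperone clients) had 470.4 ± 31.9 TPM and overlaps Jmjd8, at 787.0 TPM. Pih1d1, of the R2TP complex, had 40.5 ± 6.89. Lowest were Ptges3 (p23), at 2.87 ± 1.33 TPM, and Unc45a, at 1.89 ± 0.594.

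Nucleotide exchange factors and other regulators of HSP70 reached 1 TPM in 9 of 13 genes (median 3.13 TPM), of which Hspbp1 is also among the 81. Grpel1, the exchange factor of mitochondrial HSP70, had 51.6 ± 11.5 TPM, Bag1 21.4 ± 6.92 and St13 10.6 ± 3.86. Bag2 had 3 counts in all and Bag3, itself a heat-inducible gene, 1 count.

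Subunits of the cytosolic chaperonin TRiC and of prefoldin, which hands it actin and tubulin, reached 1 TPM in 13 of 14 genes (median 8.75 TPM). Tcp1 had 91.2 ± 13.6 TPM and overlaps Acat3, at 623.3 TPM, Cct8 had 44.8 ± 14.9 and Pfdn5 14.3 ± 6.42. Pfdn6 and Pfdn4 were lowest with 7 counts each. Other chaperones, among them ER lectins, disulfide isomerases and mitochondrial proteases, reached it in 10 of 15 (median 3.50 TPM), led by Calr at 34.3 ± 9.42, Pdia3 at 12.9 ± 3.89 and Canx at 11.6 ± 1.51. The collagen chaperone gene Serpinh1 and the lens crystallin gene Cryaa had no count.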

How the data were processed

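RNA-seq tables of 4 samples of 1 group were used. Per the file headers, the authors deposited raw counts of read pairs per gene, made with featureCounts 1.4.6-p4 over exons of GENCODE mouse release 13 on mm10, with strand setting 1 and both ends aligned; no option to count multi-mapping fragments or fragments shared by overlapping genes was given. The output names in the headers include the word star, the name of an aligner, with settings not given in the sources used here. The headers also give exon lengths, used here for TPM. Symbols matched 50376 of 50600 genes, and gene types came from release 21, in which 71 of the 81 members have the same span.

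The members, lists and ratios were chosen with earlier results of these data known. Genes were named by rule: both genes of each ratio, the 4 highest and 2 lowest with a count in each family, members above the trend, the gene of largest opposite-strand overlap, and of the related lists the 3 highest and 2 lowest; exceptions are stated. Log2 values used a pseudocount of 0.1 TPM. Folds are summed counts per exon length with exact 95% intervals, which like the limits at 0 cover counting error only, since no molecular identifiers are named and PCR reads are then not independent molecules. Opposite-strand contexts were found with bedtools 2.31.1. Spread was tested in R 4.3.3 by edgeR 4.0.16 (deposited counts, filterByExpr, TMM, intercept only, upper-tail F test of quasi-dispersion, Benjamini-Hochberg over all genes tested), with DESeq2 1.42.0 as an alternative, and the script was tested on simulated data. Tables were handled with pandas 2.3.3 and scipy 1.17.1 in Python 3.11.15. No library was a copy of another: chi-square per degree of freedom over genes was 7.35 to 30.9 for the 6 pairs. Alternatives covered scaling, filters, pseudocounts, thresholds and leaving out each library. One marker gene of another cell type is not reported here.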

Additional observations from a re-analysis of the deposited data

Results flagged for a closer look

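In 4 of 59 values looked at (51 members with at least 20 summed counts and the 8 ratios), 1 library stood apart from the other three by a gap past Dixon's 95% critical value for 4 values. Chance flags about 1 in 20 such groups. Hsp90b1 was highest in replicate 3 at 55.7 TPM, while the others lay between 49.4 and 50.1. TPM was not scaled by TMM, whose factor was highest in that library (1.079). In the edgeR test, which used TMM, Hsp90b1 was among the least variable genes, with a ratio of 0.036. The part of scaling in this gap was not tested. The other flagged genes had few counts, and they were named for this reason. Dnajc4, a type C J-domain gene, was lowest in replicate 3, at 2.85 TPM (4 counts) against 6.80 to 7.13. Hspa12b, an atypical HSP70 gene known from endothelium, was highest in replicate 3, at 2.91 TPM (14 counts) against 0.731 to 0.944. Dnajb2, a J-domain gene known from neurons, was highest in replicate 1, at 1.47 TPM (9 counts) against 0.634 to 0.737.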

How the results depend on the processing

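No paired analysis was possible because there is 1 group. Of 79 alternatives over 11 results none reversed a direction, but most could not have done so. Counts of members have no direction. Every ratio and the median density difference had 1 sign in all 4 libraries, so leaving out a library could not reverse it. A changed pseudocount cannot reverse such a ratio either. Of the 56 alternatives of the 8 ratios only those without division by exon length could reverse a direction, and none did. Sizes changed: without that division the log2 differences became 7.19 for Gm20481 over Hspa1a, 1.42 for Hspd1 over Hspe1, 2.31 for Dnaja1 over Dnajb1 and 1.77 for Hsf1 over Hsf2. The last was 2.297 with a pseudocount of 1 TPM. The number of members of 1 TPM or more was 49 of 81, and 49 to 56 under the alternatives, leaving out libraries included (49 to 50). The number of members above the trend was 0 to 1 when a library was left out, and 0 without replicate 4. Over all genes, 15 were called, and 6 to 10 with a library left out, 9 without replicate 2, where fewer samples entered the fit. DESeq2 marked 21 genes as dispersion outliers, 1 of them a member, Gm20481. The median density difference of 2.77 became 2.17 with a pseudocount of 1 TPM, 2.31 with means in place of medians, and 2.17 without Gm20481, chosen after seeing the data, as was leaving out the ribosomal RNA locus and mitochondrial genes. The cause of these moves was not tested. Depth limits the low end: a count of 0 allows up to 2.07 CPM in the shallowest library.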
